A study of Mus musculus with 22 samples.

Results

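The lymphotoxin and TNF receptor family genes described here are the ligand genes Ltb, Lta and Tnf and the receptor genes Tnfrsf13c, Tnfrsf13b, Cd40, Cd27, Tnfrsf1a and Tnfrsf1b, 9 genes found by symbol among 37669, 37851 and 26095 genes listed for the large Pro-B stage, the large Pre-B stage and the small Pre-B stage. B cell precursors of these stages were sorted from bone marrow of adult mice, and their poly-A RNA was sequenced. tet-LIN28B mice carried 1 allele of a Flag-tagged human LIN28B cDNA under a doxycycline operator at the Col1a locus together with the Rosa26 rtTA*m2 transactivator, and control mice were littermates heterozygous for Rosa26 rtTA*m2 alone. Both genotypes ate chow with 200 mg/kg doxycycline for 10 days, so that the transactivator and the drug were common to all groups, and the promoters used are not restricted to B cells. The large Pro-B stage had 5 tet-LIN28B and 4 control libraries, the large Pre-B stage 4 and 3, and the small Pre-B stage 3 and 3, in all 22 libraries of 15 mice. All cells were CD93+ and IgM-, with cKIT and forward scatter setting the stage, and 7 mice contributed a library to each of the first 2 stages.

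Ligands of the TNF family act as trimers on receptors at the cell surface. LTB anchors LTA in the membrane as a heterotrimer whose receptor, LTBR, is carried mainly by stromal and myeloid cells, and B cells use it to organize lymphoid tissue. TNF and soluble LTA bind TNFR1 (Tnfrsf1a), which carries a death domain, and TNFR2 (Tnfrsf1b), which does not. BAFFR (Tnfrsf13c) and TACI (Tnfrsf13b) bind the survival factor BAFF, CD40 receives help from T cells, and CD27 binds CD70. These receptors recruit TRAF adaptors and activate NF-kB, and BAFFR, CD40 and LTBR are textbook activators of its noncanonical branch.

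In GRCm38 the 3 ligand genes lie next to each other on chromosome 17, in the major histocompatibility complex. Ltb (ENSMUSG00000024399.5) runs over chr17:35194439-35196320 on the plus strand, Tnf over chr17:35199381-35202007 and Lta over chr17:35203165-35205351, both on the minus strand, with 3060 bp between Ltb and Tnf and 1157 bp between Tnf and Lta. The receptors are dispersed: Tnfrsf13c (ENSMUSG00000068105.11) lies at chr15:82221743-82224369 on the minus strand, Tnfrsf13b at chr11:61126755-61149372, Cd40 at chr2:165055627-165072948, Cd27 at chr6:125232622-125237010, Tnfrsf1a at chr6:125349362-125362484 and Tnfrsf1b at chr4:145213463-145246870. Cd27 overlaps Vamp1 on the opposite strand, and reads of the 2 genes cannot be told apart without strand. Values are per gene and cover all its exons.

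The promoters of Ltb and Tnfrsf13c are shown because these genes were higher in tet-LIN28B small Pre-B cells. Each runs from 250 bases before to 50 bases after the RefSeq start (GRCm38.p6), in the direction of transcription, and capitals mark a match to the NF-kB consensus.
Ltb, chr17:35194257-35194556, plus strand: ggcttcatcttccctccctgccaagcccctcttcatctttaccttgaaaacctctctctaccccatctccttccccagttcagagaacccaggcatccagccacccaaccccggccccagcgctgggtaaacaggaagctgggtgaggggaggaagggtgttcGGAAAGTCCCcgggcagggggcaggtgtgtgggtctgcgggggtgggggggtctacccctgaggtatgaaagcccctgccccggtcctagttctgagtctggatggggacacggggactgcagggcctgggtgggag
Tnfrsf13c, chr15:82224331-82224630, minus strand: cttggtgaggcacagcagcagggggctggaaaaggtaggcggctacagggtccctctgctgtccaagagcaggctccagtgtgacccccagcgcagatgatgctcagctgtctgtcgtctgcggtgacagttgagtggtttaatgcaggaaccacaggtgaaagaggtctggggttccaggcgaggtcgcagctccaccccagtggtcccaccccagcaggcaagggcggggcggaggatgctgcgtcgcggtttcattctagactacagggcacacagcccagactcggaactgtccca

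Promoters of 8 of the 9 genes were in the RefSeq table, and with both strands searched the NF-kB consensus matched in Ltb only, 87 bases upstream of its start. It matched in 8.46% of 32851 promoters of the same length. The E-box CAGGTG, the motif bound by E2A, matched in Ltb, Tnfrsf13c and Tnfrsf1b and in 20.2% of all promoters. A match describes these letters and is no evidence of binding.

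LIN28B blocks the maturation of let-7 microRNAs, so the 3′ UTRs were searched for the let-7 seed match CTACCTC. Of the 9 genes 1 held it, Tnfrsf1b, at base 770 of a UTR of 2324 bases, against 9.03% of 20983 genes with a 3′ UTR. Mature let-7a-5p is given with its seed in capitals, and the site with the bases opposite the seed in capitals.
let-7a-5p: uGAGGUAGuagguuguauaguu
Tnfrsf1b site, chromosome 4: ccacctgtctcttcCTACCTCa

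Reads on genes numbered 13.9 to 23.3 M per large Pro-B library, 19.9 to 30.4 M per large Pre-B library and 32.0 to 51.0 M per small Pre-B library. Lin28b ranged over 57.0 to 232 normalized counts (reads divided by a size factor per library) in tet-LIN28B against 4.63 to 10.2 in control large Pro-B cells. It stood at 41.9 to 175 against 9.92 to 28.8 in large Pre-B cells and 81.9 to 230 against 0 in small Pre-B cells. The genotypes did not overlap. The induced cDNA is human and reads were aligned to the mouse genome, so these values do not measure the level of the cDNA. Reads of the cDNA and of the mouse gene were not told apart. B lineage markers summed to 75642 to 109197 against 82009 to 95069 normalized counts in large Pro-B cells and were high in each library. Some control libraries held more myeloid transcripts than the rest: the 9 myeloid markers summed to 1202 to 1580 in tet-LIN28B against 1262 to 4755 in control large Pro-B cells, 169 to 326 against 300 to 6058 in large Pre-B cells and 1423 to 1491 against 1634 to 2955 in small Pre-B cells. In bulk RNA, fewer cells of a type and less RNA per cell cannot be told apart.

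Ltb, the membrane anchor of the lymphotoxin heterotrimer, had the largest log2 fold change of the 6 members tested in small Pre-B cells, the resting stage that rearranges light chains. Its normalized counts were 14605, 14627 and 13305 in tet-LIN28B against 3935, 3679 and 3964 in control small Pre-B cells. All tet-LIN28B libraries stood far above the highest control library. Means were 14179 ± 757 in tet-LIN28B and 3859 ± 156 in control cells (SD, n = 3 each), a log2 fold change of 1.88 ± 0.07 (SE, 95% interval 1.73 to 2.02, limma adjusted p = 6.57e-07). Among 14664 genes tested Ltb had the smallest p, and it ranked 97 by log2 fold change.

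Tnfrsf13c, the BAFF receptor through which BAFF keeps maturing B cells alive, was the other member past the threshold. It stood at 14355, 13513 and 15595 normalized counts in tet-LIN28B against 7938, 8464 and 9579 in control small Pre-B cells, and the groups did not overlap. The log2 fold change was 0.74 ± 0.08 (SE, 95% interval 0.56 to 0.93, limma adjusted p = 0.000468). Thus 2 of the 6 members tested were called higher in small Pre-B cells and 0 lower, in a stage where 7.34% of the genes tested were called higher and 7.03% lower.

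TACI (Tnfrsf13b), another receptor of BAFF, had 15035, 12999.6 and 13453 normalized counts in tet-LIN28B against 11864.5, 12385 and 12076 in control small Pre-B cells. All tet-LIN28B values lay above all control values, but by a log2 fold change of 0.19 (95% interval 0.04 to 0.34) that did not pass over all genes (limma adjusted p = 0.0899). Cd40 was the one member whose tet-LIN28B values all lay below the control values, at 2314, 2164 and 2177 against 2539, 2375 and 2609 normalized counts (log2 fold change -0.18, limma adjusted p = 0.143). Cd27, a costimulatory receptor, had 289, 312 and 362 normalized counts in tet-LIN28B against 237, 277 and 255 in control cells (log2 fold change 0.32, limma adjusted p = 0.192). TNFR2 overlapped between genotypes, with Tnfrsf1b at 529, 641 and 599 against 505, 736 and 711 normalized counts (log2 fold change -0.13, limma adjusted p = 0.641).

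The neighbours of Ltb on chromosome 17 were expressed at a far lower level. Lta had 25.3, 9.33 and 24.4 normalized counts in tet-LIN28B small Pre-B cells, against 4.65, 0 and 7.51 in control cells. Tnf had 14.8, 9.33 and 16.3 in tet-LIN28B against 2.79, 0 and 4.70 in control cells. The groups did not overlap for either gene, but the values rest on 9 to 36 reads a library for Lta and 9 to 21 for Tnf in tet-LIN28B cells, both failed the filter of at least 10 normalized counts in 3 libraries, and neither was tested. The control library at 0 allows up to 3.24 normalized counts, the floor of 3 reads, which covers counting error only. Tnfrsf1a, the death domain receptor of TNF, was at 0 in 3 of 3 tet-LIN28B libraries and at 0, 13.0 and 0 in control small Pre-B cells.

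Counting all 9 genes, tested or not, 6 had non-overlapping groups with higher tet-LIN28B values in small Pre-B cells (Ltb, Tnfrsf13c, Tnfrsf13b, Cd27, Lta and Tnf) and 1 with lower values (Cd40). Of the 23768 genes above 0 in a library of this stage, 12.1% were non-overlapping and higher and 11.6% non-overlapping and lower. At an unadjusted p under 0.05 stood 4 of the 6 members tested, and 29% of all genes tested.

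**Figure D1:**
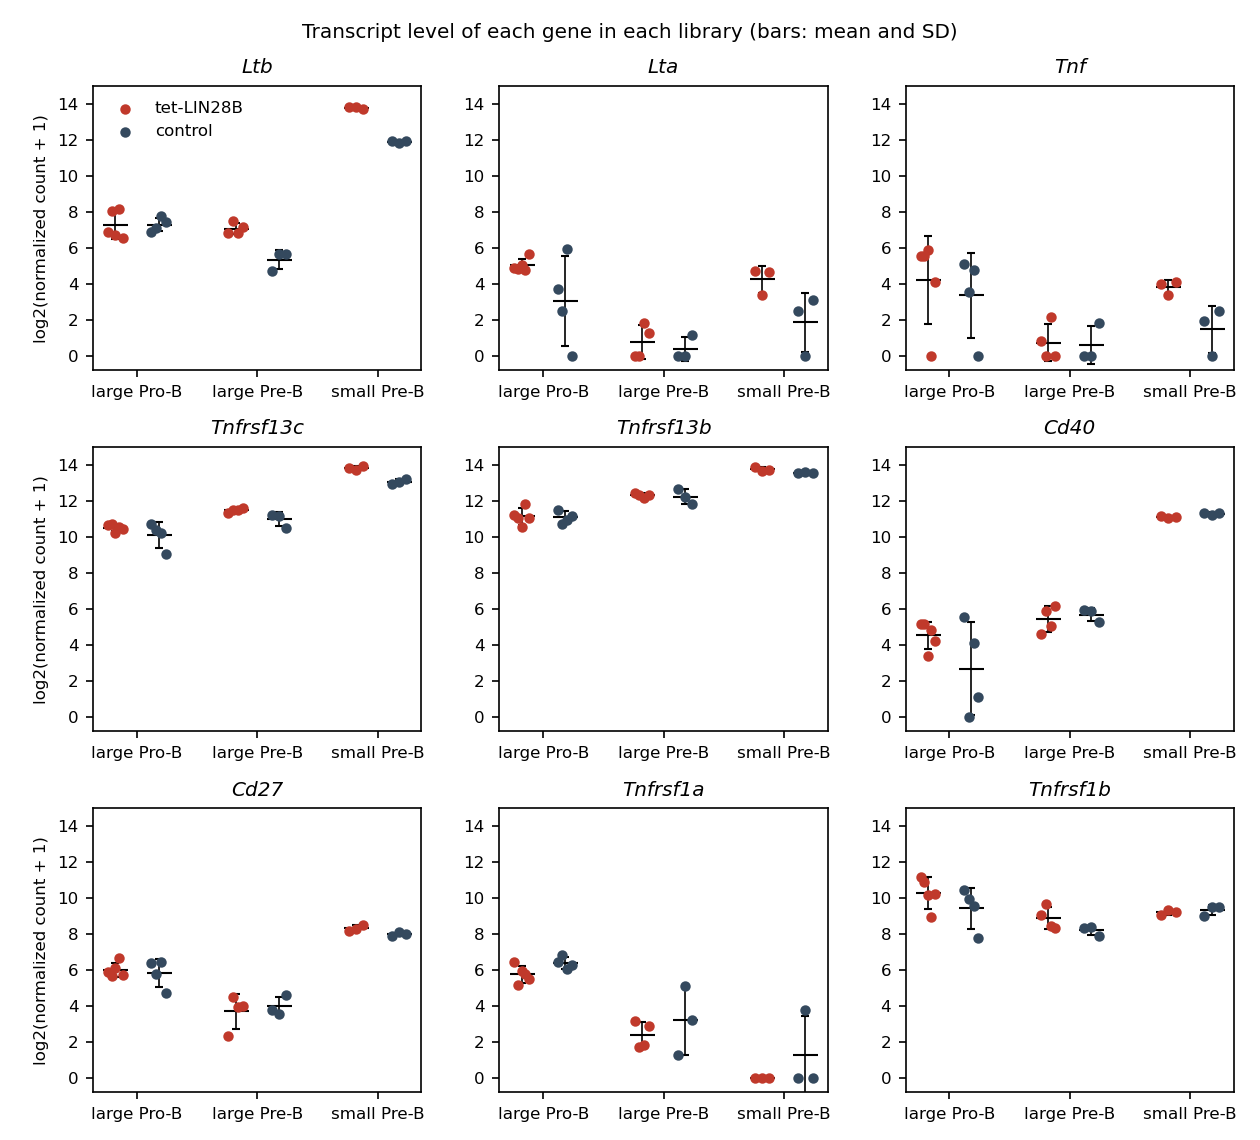
Level of each of the 9 genes in each of the 22 libraries as log2(normalized count + 1), by stage on the x axis, with tet-LIN28B in red to the left of control in dark blue and bars for the mean and SD. The red Ltb points clear the control points in large Pre-B and small Pre-B cells, and Lta and Tnf lie near 0 in large Pre-B cells; each stage has its own normalization.

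In large Pre-B cells, the dividing stage, Ltb was again higher in each tet-LIN28B library, though its level per length was far lower than in small Pre-B cells. It had 114, 181, 113 and 141 normalized counts in tet-LIN28B against 25.5, 49.0 and 49.3 in control large Pre-B cells. The groups did not overlap, and the log2 fold change was 1.74 ± 0.38 (SE, 95% interval 0.93 to 2.55), which ranked 25 of 14155 genes by p without passing over all genes (limma adjusted p = 0.212). With DESeq2 on the recovered reads Ltb passed the threshold in large Pre-B cells (adjusted p = 0.00633), and with edgeR it did not.

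Tnfrsf13c had 2566, 2937, 2871 and 3097 normalized counts in tet-LIN28B against 2409, 2320 and 1474 in control large Pre-B cells. The groups did not overlap, and the log2 fold change was 0.50 (95% interval 0.03 to 0.97, limma adjusted p = 0.747), which was 0.28 without control replicate 3, the lowest. Tnfrsf1b ranged over 323 to 818 against 238 to 331 normalized counts (log2 fold change 0.68, limma adjusted p = 0.747), and Tnfrsf13b, Cd40 and Cd27 overlapped widely, at log2 fold changes of 0.08, -0.24 and -0.29. No member was called by limma here, and 2 of the 6 members tested stood at an unadjusted p under 0.05 (Ltb and Tnfrsf13c). Of all 9 genes, the same 2 had non-overlapping groups with higher tet-LIN28B values. Of the genes tested, 0.0424% were called higher and 6.57% had an unadjusted p under 0.05. Of the genes above 0 in a library, 1.75% were non-overlapping and higher.

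Lta and Tnf were near silent in large Pre-B cells, with at most 3 reads of Lta and 4 of Tnf in any library of either genotype. Tnfrsf1a had 7.90, 2.30, 2.59 and 6.40 normalized counts in tet-LIN28B against 1.42, 33.4 and 8.32 in control large Pre-B cells. None of the 3 genes passed the filter on low values. The control library with 33.4 was replicate 2, which also had the highest summed level of the 9 myeloid markers, 6058 against at most 945 in the other libraries. In large Pro-B and small Pre-B cells, too, the library with the most Tnfrsf1a (114 and 13.0 normalized counts) was the control library with the highest myeloid sum (4755 and 2955). The large Pro-B and large Pre-B libraries named here came from the same mouse, so they are not independent observations. The part of these transcripts in Tnfrsf1a was not tested.

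In large Pro-B cells Ltb did not separate the genotypes. It had 118, 263, 104, 288 and 94.1 normalized counts in tet-LIN28B against 120, 136, 216 and 171 in control large Pro-B cells. The tet-LIN28B libraries enclosed the control range, and the log2 fold change of -0.02 had a 95% interval of -0.95 to 0.90, which includes a change of nearly 2-fold either way (limma adjusted p = 0.999). Tnfrsf13c had 1594, 1675, 1191, 1533 and 1419 normalized counts in tet-LIN28B against 1657, 1353, 1205 and 525 in control cells (log2 fold change 0.43, 95% interval -0.24 to 1.11, limma adjusted p = 0.999), and without control replicate 4, the lowest, the log2 fold change was 0.080.

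By group mean, large Pro-B cells were the stage with the most Tnfrsf1b, Tnfrsf1a, Lta and Tnf per length, and the variation among mice was wide. For Lta the control mean of 0.79 ± 1.13 reads per kb of exon per M reads (SD, n = 4) rested mainly on control replicate 3 at 2.46. The next control library stood at 0.50. Tnfrsf1b ranged over 493 to 2325 normalized counts in tet-LIN28B and 222 to 1388 in control cells (log2 fold change 0.85, 95% interval -0.35 to 2.04), which was 0.30 without control replicate 4. Tnfrsf1a had 35.4 to 85.0 against 64.6 to 114 (log2 fold change -0.63). Lta stood at 28.1, 28.0, 31.6, 26.5 and 48.9 normalized counts in tet-LIN28B libraries against 12.4, 4.63, 60.8 and 0 in control libraries (log2 fold change 1.99, 95% interval -0.20 to 4.18, limma adjusted p = 0.999). That value was 0.97 without control replicate 4 and 2.95 without control replicate 3, and 0.69 with edgeR and 0.74 with DESeq2 on recovered reads.

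Tnf was at 46.0, 46.9, 57.5, 0 and 16.3 against 33.9, 10.8, 26.9 and 0 normalized counts, so that 1 library of each genotype had no read. Cd40 ranged over 9.59 to 34.6 against 0 to 45.2, Cd27 over 49.4 to 99.7 against 25.3 to 86.9 and Tnfrsf13b over 1513 to 3693 against 1667 to 2908 normalized counts in large Pro-B cells. All 9 genes overlapped between genotypes, none was called by limma (also none with edgeR or DESeq2 on recovered reads) and none had an unadjusted p under 0.05. Across the stage, 0% of the genes tested were called higher, 2.86% had an unadjusted p under 0.05 and 0.428% of the genes above 0 were non-overlapping and higher.

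**Figure D2:**
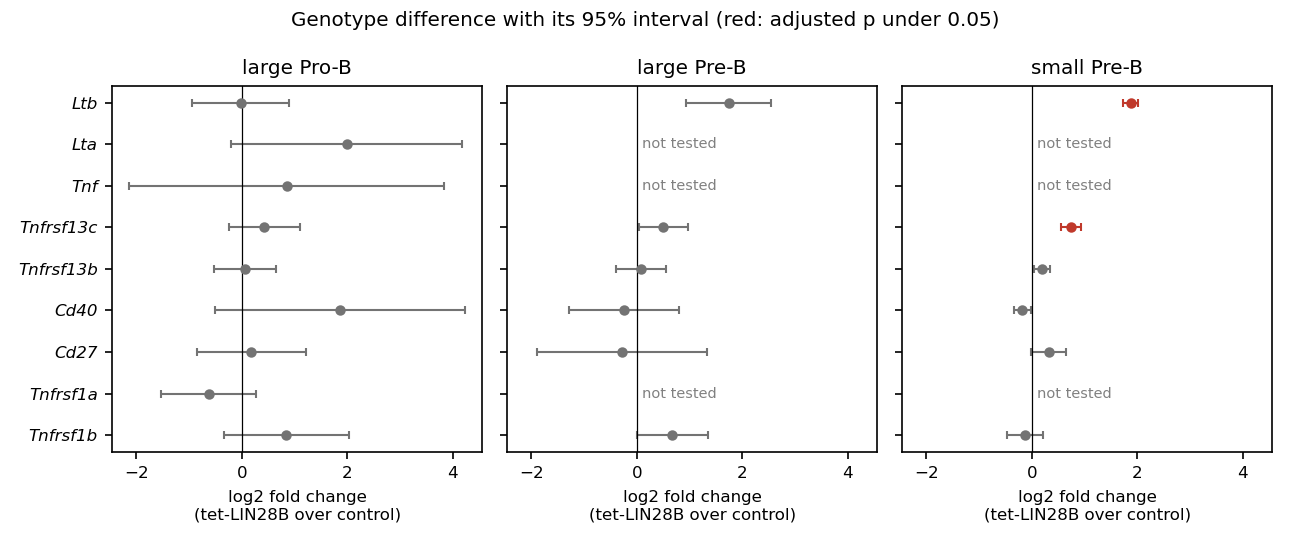
Log2 fold change of tet-LIN28B over control for each gene in the 3 stages, with its 95% interval from limma on log2(normalized count + 1); red marks an adjusted p under 0.05. Ltb at 1.88 and Tnfrsf13c at 0.74 in small Pre-B cells are the red points, and the interval of Ltb narrows with stage from -0.95 to 0.90 in large Pro-B cells to 1.73 to 2.02 in small Pre-B cells.

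Whether the genotype effect differed between stages was tested in 1 model of the 6 groups that took the mouse as a random effect, over 11830 genes that passed the filter in each stage, which included 6 of the 9 members. The Ltb effect was larger by 1.90 ± 0.48 on the log2 scale in small Pre-B than in large Pro-B cells (rank 21 of all genes by p, limma adjusted p = 0.352), and by 1.70 ± 0.40 in large Pre-B than in large Pro-B cells (rank 7 of all genes by p, limma adjusted p = 0.471). Between small and large Pre-B cells it differed by 0.20 (95% interval -0.85 to 1.24, limma adjusted p = 0.999). None of these passed over all genes, and Ltb was the only member with an unadjusted p under 0.05, in 2 of the 3 contrasts. Of all genes, 0.0338%, 0% and 0.0169% were called, in the same order. Without large Pro-B tet-LIN28B replicate 4, the difference of Ltb between small Pre-B and large Pro-B cells was 2.12 and passed (adjusted p = 0.0301). For Tnfrsf13c the effect in small Pre-B minus that in large Pro-B cells was 0.31 (95% interval -0.45 to 1.08), and for Tnfrsf13b, Cd40, Cd27 and Tnfrsf1b adjusted p-values were 0.99 or higher.

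The order of levels among the genes was compared per length, as reads per kb of exon per M reads. In tet-LIN28B small Pre-B cells Ltb led with 263 ± 10.5, followed by Tnfrsf13c with 199 ± 16.9 and Tnfrsf13b with 137 ± 9.82 (SD, n = 3). In control small Pre-B cells Tnfrsf13b and Tnfrsf13c led with 123 ± 2.79 and 122 ± 11.7, which did not differ beyond their spread, and Ltb followed with 73.5 ± 2.88 (SD, n = 3). Thus Ltb ranked 1 of the 9 in tet-LIN28B and 3 in control small Pre-B cells. Cd40 came next in both, at 18.3 ± 0.58 and 21.2 ± 0.99, then Tnfrsf1b at 4.35 and 4.92 and Cd27 at 3.89 and 3.18, while Lta, Tnf and Tnfrsf1a were under 1.

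At the earlier stages Tnfrsf13b was the highest of the 9 genes per length. It stood at 108 ± 10.7 in tet-LIN28B and 111 ± 20.4 in control large Pre-B cells, and at 45.4 ± 11.5 and 43.5 ± 10.3 in large Pro-B cells. Tnfrsf13c was next, with 83.5 against 63.8 in large Pre-B and 40.2 ± 4.15 against 32.3 ± 13.1 in large Pro-B cells, where the 2 genes overlapped within their spread. Tnfrsf1b was highest in large Pro-B cells, with 20.8 against 12.2, followed by 7.80 against 4.95 in large Pre-B and 4.35 against 4.92 in small Pre-B cells, and its control levels at the last 2 stages did not differ beyond their spread. Ltb was 6.21 in tet-LIN28B and 5.90 in control large Pro-B cells and 5.38 and 1.79 in large Pre-B cells, so that per length its control level was lowest in large Pre-B cells. No mouse gave both a small Pre-B library and one of an earlier stage, and levels across stages are given as a description.

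**Figure D3:**
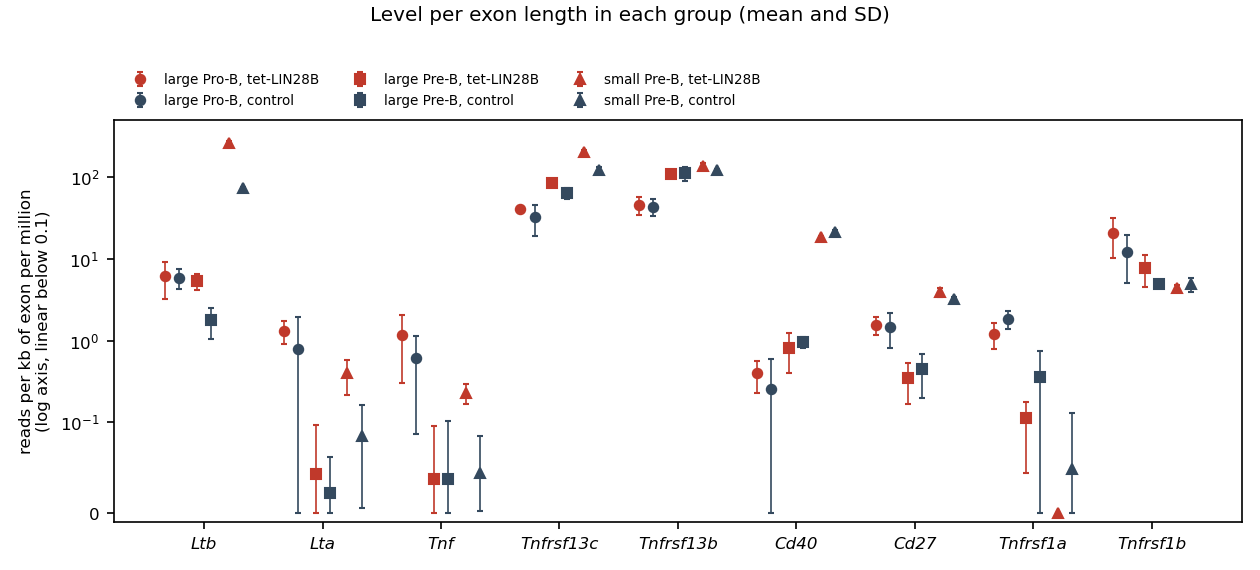
Reads per kb of exon per M reads for each gene in the 6 groups (mean and SD; circles large Pro-B, squares large Pre-B, triangles small Pre-B; red tet-LIN28B, dark blue control), on a log axis that is linear below 0.1. Ltb is the highest red triangle at 263 while its control triangle stands at 73.5, and Tnfrsf1b is highest in large Pro-B cells, at 20.8 and 12.2.

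Other TNF family genes and the pathway downstream were counted from lists drawn up with earlier results of these data known. Some genes stand in more than 1 list, and Ccr7 is both an NF-kB-induced gene and a marker of later B cells below, so the counts are not independent. Of 22 other TNF receptor superfamily genes, 11 were tested in small Pre-B cells, where 2 were called higher and 2 lower (median log2 fold change 0.48, against -0.0024 over all genes). Over all genes tested in this stage, 7.34% were called higher and 7.03% lower. Tnfrsf18 (GITR, a costimulatory receptor) averaged 284 in tet-LIN28B and 94.4 in control cells (log2 fold change 1.58, limma adjusted p = 0.000813), and Relt averaged 402 and 170 (1.26, adjusted p = 0.00278). Tnfrsf19 (TROY) averaged 2785 and 4301 (-0.62, adjusted p = 0.00177) and Tnfrsf21 (DR6, a death receptor) 47.2 and 112 (-1.22, adjusted p = 0.029). Lower calls numbered 1 without tet-LIN28B replicate 1 or 2 or control replicate 2 or 3. Of 15 other ligand genes, 2 were tested and 0 called. Among the partners of the 9 genes, named here with their values seen, the lymphotoxin receptor gene Ltbr ranged over 0 to 4.15 in tet-LIN28B against 0 to 5.41 normalized counts in control small Pre-B cells and Tnfsf13b, which encodes BAFF, over 0 to 8.30 against 0 to 1.88.

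Over all genes tested in small Pre-B cells, 7.34% were called higher and 7.03% lower. Of 31 adaptors and regulators 4 were called higher and 0 lower in small Pre-B cells (median log2 fold change 0.02), and 5 higher and 2 lower without tet-LIN28B replicate 2. The 4 were Tab2, an adaptor of the kinase TAK1 (0.57, limma adjusted p = 0.00652), Traf3ip3 (0.31, adjusted p = 0.00667), Ripk3, the necroptosis kinase (0.48, adjusted p = 0.0104), and Traf5, an adaptor of CD40 and CD27 (0.43, adjusted p = 0.0107). Of 14 NF-kB subunits, inhibitors and kinases, 1 was called higher, the inhibitor Nfkbib (0.46, adjusted p = 0.00886), and 0 lower (median -0.01). The count of higher calls in this list is near the share over all genes. The subunits of the noncanonical branch, Nfkb2 and Relb, had log2 fold changes of -0.09 and -0.22, and Map3k14, its kinase NIK, 0.12, none of which passed (adjusted p = 0.41, 0.212 and 0.347).

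Over all genes tested in small Pre-B cells, 7.34% were called higher and 7.03% lower. Of 23 genes that NF-kB is known to induce in B cells, 20 were tested in small Pre-B cells, where 9 were called higher and 2 lower (median log2 fold change 0.24). They included the chemokine receptors Cxcr5 (2.01, limma adjusted p = 0.000351) and Ccr7 (0.69, adjusted p = 0.000226), the costimulatory ligand Cd86 (1.23, adjusted p = 0.000791), the adhesion molecules Icam1 (0.88, adjusted p = 0.00099) and Cd44 (0.32, adjusted p = 0.0121) and the stress gene Gadd45b (0.69, adjusted p = 0.000372). The lower ones, named after their values were seen, were Irf4 (-0.39, adjusted p = 0.0363) and Bcl2l1 (-0.26, adjusted p = 0.0359), while the feedback inhibitors Nfkbia and Tnfaip3 had 0.07 and -0.26 (adjusted p = 0.445 and 0.202). Leaving out 1 library gave 6 or 7 higher and 0 to 4 lower; the lower calls were absent without tet-LIN28B replicate 3 or any of the 3 control replicates and numbered 1 without tet-LIN28B replicate 1 and 4 without tet-LIN28B replicate 2. With all libraries, no gene of these 5 lists was called by limma or edgeR in large Pro-B or large Pre-B cells. Limma called 1 NF-kB-induced gene higher in large Pre-B cells without control replicate 2 or without the filter. Of 18 NF-kB-induced genes tested in large Pro-B cells, 3 had an unadjusted limma p under 0.05, against 2.86% of all genes tested. For large Pre-B cells the count was 6 of 19, against 6.57% of all genes tested. Every other list had at most 1 such gene at the Pro-B stage and 2 at the large Pre-B stage. Whether these shares differ was not tested. DESeq2 on recovered reads called 2 NF-kB-induced genes higher in large Pre-B cells, named after their values were seen, Cd83 (log2 fold change 2.96, adjusted p = 0.0189) and Slfn2 (1.69, adjusted p = 0.00199), and none in large Pro-B cells.

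Most markers of later B cells were higher in tet-LIN28B small Pre-B cells, as Ltb and Tnfrsf13c were. In that stage 7.34% of all genes tested were called higher and 7.03% lower. Of 10 immature and mature B cell markers, all tested in small Pre-B cells, 7 were called higher and 1 lower. Their summed level there was 51180 to 58966 normalized counts in tet-LIN28B against 37400 to 41542 in control cells. In large Pre-B cells limma called 0 of these markers. The sums overlapped there, at 15680 to 18539 in tet-LIN28B against 10671 to 18530 in control cells. Among those higher in small Pre-B cells were Fcer2a (CD23, 2.88, limma adjusted p = 7.72e-05) and Ms4a1 (CD20, 1.53, adjusted p = 0.000167). Ighd had -0.0054 (limma adjusted p = 0.969) and was not the marker called lower. Il2ra, which marks late pre-B cells, was lower (-1.13, adjusted p = 2.85e-05). The 7 T cell markers, mostly Lck and with Cd3e at 0 in each library, summed to 841 to 1081 in tet-LIN28B against 569 to 817 in control cells. This list holds Cd5, and the paper found more CD5+ Nur77-GFP+ cells among tet-LIN28B small Pre-B cells, so its sum is not specific to T cells. The 6 NK and innate lymphoid markers summed to 6.34 to 10.4 against 14.1 to 51.9 and the 4 erythroid markers to 64.3 to 92.9 against 20.7 to 54.9. The 3 stroma markers summed to 18.1 to 44.6 against 0.939 to 6.51 and the 4 plasma cell markers to 8543 to 10272 against 11165 to 12901. Of the plasma cell markers 1 was called higher and 2 lower. The 9 B lineage markers summed to 420119 to 446871 against 399409 to 406309 normalized counts, though 1 of them was called higher and 2 lower. None of these small Pre-B ranges overlapped between genotypes. The sums of the 2 Pro-B markers did overlap there, at 112 to 157 in tet-LIN28B against 64.2 to 119 in control cells. So did those of the 4 plasmacytoid dendritic cell markers, at 9035 to 11831 against 9622 to 10466. The part of these transcripts in the levels of the 9 genes was not tested.

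**Figure D4:**
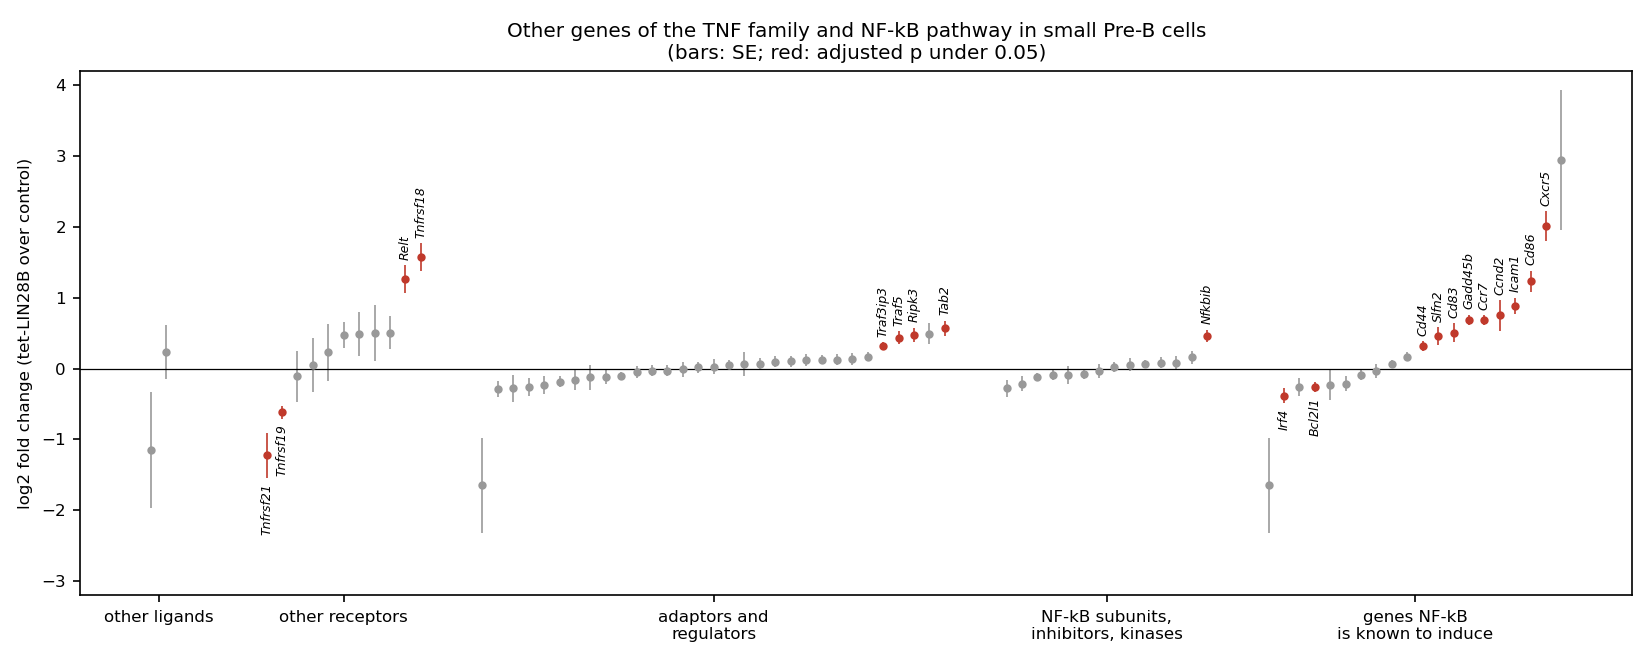
Log2 fold change of tet-LIN28B over control in small Pre-B cells for the tested genes of 5 lists (bars: SE; red and named: adjusted p under 0.05), ordered by value within each list on the x axis. Cxcr5 at 2.01, Tnfrsf18 at 1.58 and Relt at 1.26 lie highest among the red points, and most adaptors and NF-kB subunits lie near 0.

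The genes with a pattern most like that of Ltb were sought by Pearson's r of log2(normalized count + 1), centred on the mean of each stage, over the 22 libraries and 10207 genes. These were Limd2 (r = 0.844), Evl (0.843), Hmga1 (0.842), Thra (0.841) and Usp18 (0.84), and the points share libraries, mice and genotype groups. In small Pre-B cells Limd2 averaged 56831 in tet-LIN28B and 34425 in control cells (log2 fold change 0.72), Evl, an actin regulator, 6226 and 4025 (0.63), Hmga1, a chromatin protein, 29543 and 15947 (0.89), Thra, a thyroid hormone receptor, 369 and 194 (0.92) and Usp18, an interferon-induced protease, 734 and 283 (1.33). None of these 5 log2 fold changes in small Pre-B cells reached that of Ltb there. Among the members that passed the filter in each stage, r with Ltb was 0.46 for Tnfrsf13c, 0.24 for Tnfrsf13b, 0.13 for Cd27, 0.02 for Tnfrsf1b and 0.01 for Cd40.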

How the data were processed

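Poly-A RNA of 3 sorted stages of B cell precursors was measured in 22 libraries (SMART-Seq v4, then Nextera XT). Per the submitters' notes the authors used STAR 2.7.1 with mm10 for alignment, RSEM 1.28 for quantification and DESeq2 for normalization; the annotation was not given in the sources used here. Each stage has 1 table, whose deposited signal per gene is a normalized count, that is a count over the size factor of its library. 100% of values came out as whole reads within 0.1 read, which gave the library totals; these carry counting error only, because reads after PCR, without molecular identifiers, are not independent molecules. The authors also deposited fold changes, standard errors, test statistics and p-values of their own comparisons, which were not used. Symbols altered by R's naming rules were restored for 3123, 3204 and 1944 genes. Sequencers were a NextSeq and a NovaSeq, and which library ran on which is not given, so a sequencer batch was not checked. Libraries were grouped by their labels, with separate mice within a group.

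Genotypes were compared within a stage with limma 3.58.1 in R 4.3.3 (trend, not robust) on log2(normalized count + 1), over genes with at least 10 normalized counts in 4, 3 and 3 libraries, the size of the smaller group, adjusted by Benjamini-Hochberg over all genes and called under 0.05. Fold changes are on this log2(normalized count + 1) scale. Members that failed this filter are given as values only. Normalized counts are not counts, so edgeR 4.0.16 and DESeq2 1.42.0 on recovered reads were alternatives; edgeR called 0 genes in large Pro-B and large Pre-B cells, and 994 higher and 1024 lower in small Pre-B cells. Stage differences used 1 model with the mouse as a random effect (correlation 0.278). The main limma fit, edgeR, DESeq2 and the model of stage differences were tested on simulated counts, and the other alternatives were not. The simulated counts had the same dispersion for all genes and no mouse effect, so they do not cover the spread among mice seen here. Levels per length used exons of GENCODE M21 (GRCm38). The members, lists, motifs, tests and alternatives were chosen with earlier results of these data known. Named genes were the 9 members, per list up to 6 called genes by smallest adjusted p, and the 5 genes most like Ltb among those with a mean of at least 50 in some group. No deposited column was left without a sample.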

Additional observations from a re-analysis of the deposited data

Results flagged for a closer look

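The highest or lowest library was set against the rest by Dixon's test in groups of 4 or 5 libraries (both genotypes in large Pro-B cells and tet-LIN28B in large Pre-B cells), 27 sets over the 9 genes, and groups of 3 libraries were not checked. Lta in tet-LIN28B large Pro-B replicate 5 stood at 48.9 normalized counts, apart from the other 4 libraries of that group at 26.5 to 31.6. Chance alone flags about 1 in 20 groups.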

How the results depend on the processing

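Both calls in small Pre-B cells held under each alternative run there: the pseudocount (0.5 or 5), the filter (none or 50), libraries rescaled to the same total, quantile normalization, edgeR and DESeq2 on recovered reads, the replicate number as a block, and each library left out. Ltb ranged over 1.84 to 1.92 and Tnfrsf13c over 0.68 to 0.82 on the log2 scale. With DESeq2 on recovered reads 1 member was called in large Pre-B cells (Ltb), and leaving out 1 library gave 0 to 1 members whose effect differed between stages (Ltb, without large Pro-B tet-LIN28B replicate 4). The cause was not tested. Rescaling to the same total moved the median log2 fold change of all genes in large Pre-B cells to -0.12, against -0.017, and the share of small Pre-B calls that were higher to 40.3%, against 51.1%. In small Pre-B cells all calls together numbered 497 higher and 519 lower without control replicate 1, the fewest with a library left out. In large Pre-B cells DESeq2 called 61 higher and 15 lower over all genes against 6 and 2 by limma, and rescaling 0 and 1.

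Uncalled differences that changed sign were Ltb in large Pro-B cells, at 0.081 with edgeR, 0.11 with DESeq2 and -0.25 to 0.15 with a library left out, and Cd27 there, at -0.010 with quantile normalization. In large Pre-B cells Tnfrsf13b was -0.024 with rescaling and -0.079 with quantile normalization, where Cd40 was 0.058 and Cd27 0.19. With a library left out, values were -0.12 to 0.20 for Tnfrsf13b, -0.27 to 1.91 for Tnf and -0.19 to 0.39 for Cd27 in large Pro-B cells, and -0.49 to 0.027 for Cd40, -0.56 to 0.18 for Cd27 and -0.13 to 0.30 for Tnfrsf13b in large Pre-B cells.

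Replicate numbers are shared across genotypes but name different mice, and deviations of same-numbered libraries correlated from -0.19 to 0.43, with 5 of 10 pairs above 0.1, so the number was not read as a pairing. With the replicate block, 0, 0 and 2 members were called in the 3 stages and Ltb was 0.15 in large Pro-B cells; 3 of 10 libraries correlated best with their own number. Without the mouse as a block, 0 members differed between stages.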
